A study of Mus musculus with 27 samples.

Results

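The genes described here are Bhlha15, which encodes the transcription factor MIST1, and 4 genes tied to it in secretory cells, namely Xbp1, Rab3d, Rab26 and Pgc. They were taken by symbol from a table of 56691 genes, which makes 5 members of 56691, and were followed across 7 groups of mouse gastric organoids. Each symbol matched 1 row, and all 5 members passed the filter on low counts.

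MIST1 is a basic helix-loop-helix factor that scales up the secretory machinery of cells that store protein in granules, such as gastric chief cells, pancreatic acinar cells and plasma cells. It binds E-boxes as a dimer. XBP1 is a transcription factor of the unfolded protein response that expands the endoplasmic reticulum (ER), and it has been placed upstream of Mist1 in mouse chief cells. Rab3d and Rab26 encode small GTPases of secretory granules that are reported MIST1 targets in mouse. Pgc encodes progastricsin (pepsinogen C), a protease precursor that chief cells secrete and that neck cells also carry as they mature.

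The organoids were grown in Matrigel in proliferating medium from single cells of adult mouse stomach. Gpx4 knockout organoids (KO) came from Gpx4F/F;Mist1Cre/ERT2;RFPLSL mice and were sampled at passages 5, 10 and 15. Wild-type organoids (WT), labelled Mist1+, came from Mist1Cre/ERT2;RFPLSL mice, which carry a floxed-stop RFP reporter and lack the floxed Gpx4 allele, and were sampled at the same passages. A further kind, labelled Mist1- and WT in genotype, was sampled at passage 5. Every group had 3 libraries, 21 in all. The labels describe a flow sort for RFP+ cells only and do not say how the Mist1- founders were gated. RFP would mark founding cells in which the Mist1 driver had been active, which is not a measure of MIST1 in the organoids at sampling. The dose and timing of recombination, the ages in weeks of these mice, the number of mice, and whether the Cre allele removes a Bhlha15 coding copy are not given in the sources used here. Nor do they state that libraries of one group came from separate cultures, so the p-values below reflect only the spread between libraries, which may be technical.

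The sequences just upstream of 4 members are printed to show which E-boxes, the sites that helix-loop-helix factors such as MIST1 bind, and which CCACG elements, a core shared by unfolded protein response promoters, lie there. They are the 250 bases before the RefSeq start on GRCm38.p6, read 5′ to 3′ on the gene's strand, with matches to CANNTG or CCACG on either strand in capitals.
Xbp1: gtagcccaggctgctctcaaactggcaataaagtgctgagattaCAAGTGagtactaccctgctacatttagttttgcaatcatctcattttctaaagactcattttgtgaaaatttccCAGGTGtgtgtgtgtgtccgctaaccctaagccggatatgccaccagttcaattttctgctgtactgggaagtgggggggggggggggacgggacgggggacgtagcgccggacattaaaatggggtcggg
Bhlha15: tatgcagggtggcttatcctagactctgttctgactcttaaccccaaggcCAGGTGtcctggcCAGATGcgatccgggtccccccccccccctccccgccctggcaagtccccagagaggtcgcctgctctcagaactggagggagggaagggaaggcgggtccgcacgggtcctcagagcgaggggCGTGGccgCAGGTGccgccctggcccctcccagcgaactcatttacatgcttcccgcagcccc
Rab3d: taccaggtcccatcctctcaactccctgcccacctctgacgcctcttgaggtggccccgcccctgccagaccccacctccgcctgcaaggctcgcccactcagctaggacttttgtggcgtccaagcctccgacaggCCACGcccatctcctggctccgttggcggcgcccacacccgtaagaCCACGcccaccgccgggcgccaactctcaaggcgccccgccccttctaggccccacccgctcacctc
Pgc: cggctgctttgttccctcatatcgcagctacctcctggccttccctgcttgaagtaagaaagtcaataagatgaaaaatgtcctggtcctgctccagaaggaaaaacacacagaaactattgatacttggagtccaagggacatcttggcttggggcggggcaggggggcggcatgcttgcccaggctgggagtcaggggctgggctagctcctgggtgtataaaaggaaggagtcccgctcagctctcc
The windows are chr11:5520391-5520640 on the plus strand for Xbp1, chr5:144190036-144190285 plus for Bhlha15, chr9:21918184-21918433 minus for Rab3d and chr17:47726592-47726841 plus for Pgc. Rab26 is named only. Bhlha15 had 3 E-boxes, starting 200, 187 and 55 bases before the start, and 1 CCACG match, as CGTGG, 63 bases before it. Xbp1 had 2 E-boxes, 206 and 131 bases before the start, and Rab3d had 2 CCACG matches, 113 and 67 bases before it. Pgc had neither. Of 32851 promoters of this length, 66.2% held CANNTG and 28.3% held CCACG. None of the 4 windows held the E-box reported at MIST1 target genes (CATATG), which 3.5% of all these promoters held, or a second E-box form (CAGCTG), found in 13.0%. Both are also counted as CANNTG. The core that XBP1 binds (ACGTG) was in none of the 4 and in 16.6% of all. A match describes letters only.

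In the annotation (GENCODE M21, GRCm38), Bhlha15 (ENSMUSG00000052271) spans chromosome 5 from 144190286 to 144194441, Xbp1 (ENSMUSG00000020484) chromosome 11 from 5520659 to 5525893, and Rab3d (ENSMUSG00000019066) chromosome 9 from 21907491 to 21918192. Rab26 (ENSMUSG00000079657) spans chromosome 17 from 24527241 to 24534210, and Pgc (ENSMUSG00000023987) chromosome 17 from 47726842 to 47734482. Counts were made per gene over its exons. They do not separate the spliced Xbp1 transcript, which encodes the active factor, from the unspliced one. Rab26 overlaps 4 other genes in the table, among them its antisense gene Rab26os, and the strand setting of the counting was not stated, so Rab26 counts are uncertain.

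The libraries held 13805585 to 19608956 counts in genes. Replicates differed little in 6 groups, with a biological coefficient of variation of 1.89% to 3.07%, but by 21.1% in WT at passage 15, whose 3 libraries stood apart from one another. The fit estimated the spread of each gene over all groups together. Where WT passage 15 is compared, SE and adjusted p can therefore understate the spread of that group. Shares of all genes called can be too high there. Gpx4, the floxed gene, was at 83.1 to 101 CPM (counts scaled to library size) over the 9 KO libraries, against 104 to 195 CPM over the 9 WT Mist1+ libraries, so the KO libraries were lower and not empty. It was called lower in KO at passages 5 (log2 fold change -0.38 ± 0.14 SE, adjusted p = 0.0362) and 15 (-0.72 ± 0.14, adjusted p = 0.000215), and not at passage 10 (-0.30 ± 0.14, adjusted p = 0.094). At passage 15 the WT libraries had 195, 104 and 127 CPM of Gpx4, so the top of the WT range was replicate 1 of that group. A count over the whole gene does not isolate the deleted exons. Because whole organoids were sequenced, fewer cells of a type and less RNA per cell cannot be told apart.

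Chief cell identity was checked through the other genes such cells secrete. Pga5 (pepsinogen A), Lipf (gastric lipase), Chia1 (acidic chitinase) and Cpb1 had 0 counts in all 21 libraries, which allows up to 0.00868 CPM over the 345816939 counts pooled. Cblif, encoding gastric intrinsic factor, had 7 counts in 4 libraries. Of 10 listed chief cell genes in the table, the other 5 were thus at or near 0 in every group. Markers of pancreatic acinar cells summed to at most 1.51 CPM in any library, and 1 to 4 of the 9 had any count in a group. The 10 plasma and B cell genes summed to 298 to 570 CPM, nearly all of it Sdc1 (syndecan-1, also made by epithelia), with group means of 296 to 528 CPM. Of the rest, Prdm1 averaged 0.734 to 3.202 CPM and Pou2af1 0.0400 to 1.27 CPM, while Jchain, Mzb1 and Tnfrsf17, which mark plasma cells, averaged at most 0.0367, 0.0201 and 0.0193 CPM.

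Levels are given as CPM scaled by the TMM method, and comparisons between genes as FPKM, which also corrects for exon length. On the FPKM scale Xbp1 was the most abundant member, with group means of 77.9 to 131 FPKM. Rab3d had 30.1 to 55.4 FPKM, Pgc 1.44 to 20.9 FPKM, Bhlha15 0.77 to 3.24 FPKM and Rab26 0.0767 to 0.637 FPKM. The ratio of the highest to the lowest group mean, on the CPM scale, was 15.1 for Pgc, 8.11 for Rab26, 4.19 for Bhlha15, 1.93 for Rab3d and 1.68 for Xbp1. The most abundant members thus varied least between groups.

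**Figure D1:**
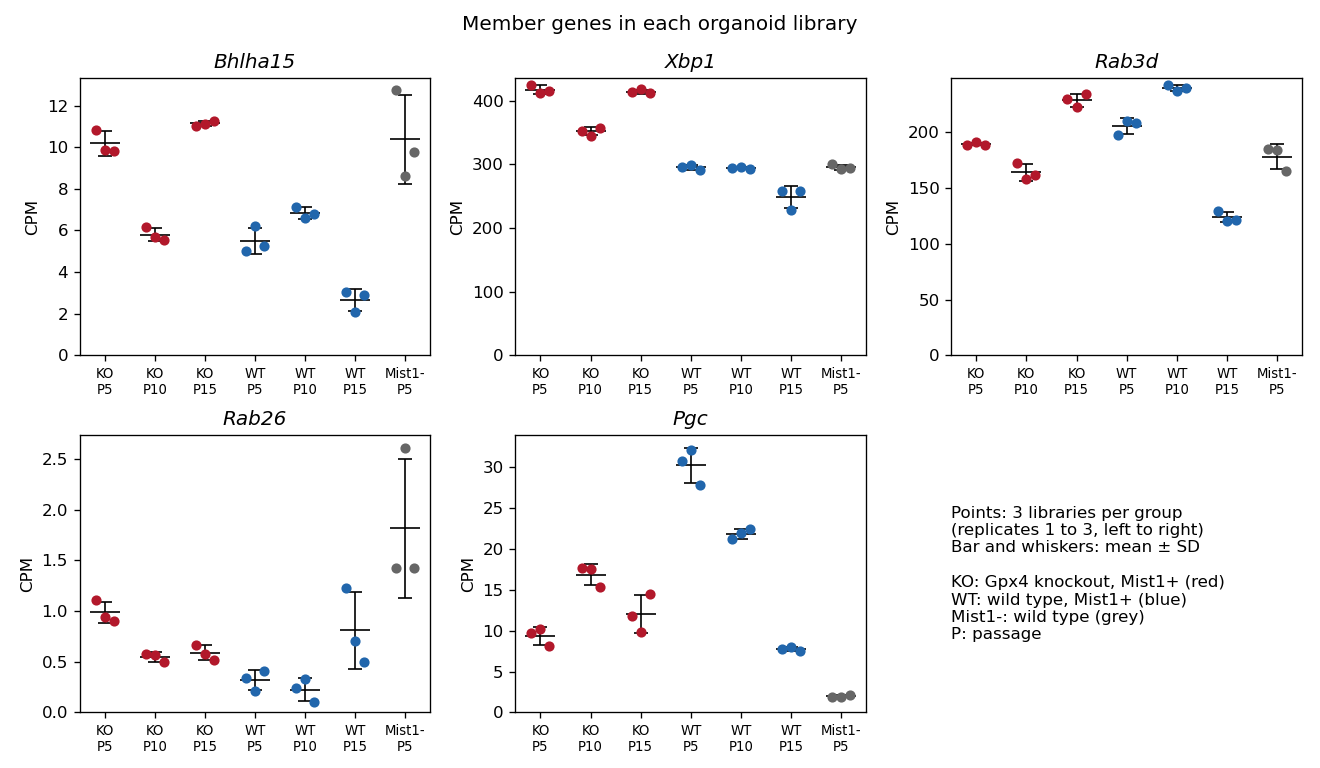
CPM of each member (y axis, from 0) in every library, by group (x axis); points are the 3 libraries of a group, bars and whiskers the mean ± SD. Pgc ran from 1.89 CPM in a Mist1- library to 32.0 CPM in a WT passage 5 library, while Xbp1 stayed between 229 and 425 CPM.

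Xbp1, the regulator placed upstream, was higher in KO than in WT organoids at each passage. The KO libraries had 425, 412 and 415 CPM (passage 5), then 352, 345 and 358 CPM (passage 10), and then 413, 418 and 411 CPM at passage 15. The WT libraries had 296, 298 and 291 CPM (passage 5), then 294, 297 and 293 CPM (passage 10), and then 259, 229 and 258 CPM at passage 15. Mist1- libraries had 300, 293 and 294 CPM. All 9 KO libraries lay above all 12 others. In the order of group means, KO at passages 5 and 15 overlapped, as did Mist1-, WT passage 5 and WT passage 10 with one another, and WT at passage 15 was lowest.

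Bhlha15 did not follow the Mist1 labels. Mist1+ WT libraries at passage 5 had 5.02, 6.21 and 5.28 CPM, against 12.8, 8.61 and 9.76 CPM in Mist1- libraries. The 2 groups did not overlap, and the lower one was that labelled Mist1+. KO libraries had 10.9, 9.85 and 9.84 CPM (passage 5), then 6.16, 5.69 and 5.55 CPM (passage 10), and then 11.0, 11.1 and 11.3 CPM at passage 15, so passage 10 lay apart from both neighbours. WT libraries had 7.13, 6.59 and 6.81 CPM (passage 10), and then 3.02, 2.06 and 2.89 CPM at passage 15. The group means were highest in KO at passage 15 (11.1 ± 0.111 CPM, SD, n = 3), Mist1- (10.4 ± 2.15 CPM) and KO at passage 5 (10.2 ± 0.582 CPM), whose neighbours in the order overlapped, and lowest in WT at passage 15 (2.66 ± 0.521 CPM). These are 35 to 216 counts per library.

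Rab3d, a GTPase on the membrane of mature zymogen granules, was abundant everywhere. In KO libraries it had 189, 191 and 189 CPM (passage 5), then 173, 158 and 162 CPM (passage 10), and then 229.9, 222 and 234 CPM at passage 15. WT libraries had 197.5, 210.3 and 209 CPM (passage 5), then 242, 237 and 239.9 CPM (passage 10), and then 129.6, 121 and 122 CPM at passage 15. Mist1- libraries had 185, 184 and 165 CPM. The order of group means ran from WT passage 10 (240 ± 2.52 CPM) to WT passage 15 (124 ± 4.80 CPM), and of the 6 neighbouring pairs only Mist1- and KO passage 10 overlapped.

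Rab26, the GTPase that acts on granule maturation and lysosome position, was near the limit of these libraries, with 2 to 46 counts each. Mist1- libraries had 1.42, 2.61 and 1.42 CPM, and lay above all Mist1+ libraries, KO or WT. KO libraries had 1.11, 0.943 and 0.905 CPM (passage 5), then 0.577, 0.569 and 0.495 CPM (passage 10), and then 0.667, 0.580 and 0.517 CPM at passage 15. WT libraries had 0.339, 0.212 and 0.411 CPM (passage 5), then 0.240, 0.326 and 0.106 CPM (passage 10), and then 1.22, 0.707 and 0.493 CPM at passage 15, where the libraries spread most. Rab26os, its antisense gene, ordered the groups differently, with 1.82 ± 0.534 CPM in KO and 4.44 ± 0.469 CPM in WT at passage 5, and 3.50 ± 0.610 CPM in Mist1- (SD, n = 3 each). Traf7, which overlaps Rab26 on the same strand, was like Rab26 highest in Mist1-. It had 145 ± 2.84 CPM there, against group means of 93.9 to 119 CPM elsewhere. The part of this overlap in the Rab26 counts was not tested.

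Pgc differed most between the Mist1+ and Mist1- labels. WT Mist1+ libraries at passage 5 had 30.7, 32.0 and 27.8 CPM, against 1.89, 1.93 and 2.19 CPM in Mist1- libraries. WT libraries had 21.2, 21.9 and 22.4 CPM (passage 10) and then 7.77, 7.95 and 7.51 CPM (passage 15), and these 3 groups did not overlap. KO libraries had 9.69, 10.2 and 8.09 CPM (passage 5), then 17.7, 17.5 and 15.3 CPM (passage 10), and then 11.8, 9.80 and 14.4 CPM at passage 15, so their highest level was at passage 10. All 18 Mist1+ libraries, KO or WT, lay above the 3 Mist1- libraries. In the order of group means only KO at passages 15 and 5 overlapped.

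The comparison of Mist1+ with Mist1- organoids asked how organoids from founders labelled Mist1+ or Mist1- differ at passage 5. Of the 5 members, 2 were called higher in Mist1+, 2 lower and 1 was not called, where 35.0% of all 15115 tested genes were called. Pgc was higher by 3.91 ± 0.14 (log2 fold change ± SE, adjusted p = 4.65e-15), a 15.0-fold difference, and Rab3d by 0.21 ± 0.05 (adjusted p = 0.00405). Bhlha15 was lower, at -0.91 ± 0.14 (adjusted p = 1.89e-05), and so was Rab26, at -2.47 ± 0.39 (adjusted p = 3.09e-05). Xbp1 had 295 ± 3.62 CPM in Mist1+ and 295 ± 3.88 CPM in Mist1-, a log2 difference of 0.00 ± 0.05 (95% interval -0.095 to 0.094). The Rab3d call was lost without a low-count filter (0.16, adjusted p = 0.135).

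Gpx4 knockout was compared with wild type at each passage. At passage 5, 4 of 5 members were called (30.1% of all genes, 4547 genes, against 7095 without WT passage 15 in the fit). Bhlha15 was higher in KO by 0.89 ± 0.14 (adjusted p = 3.74e-05), Xbp1 by 0.50 ± 0.05 (adjusted p = 6.88e-08) and Rab26 by 1.59 ± 0.42 (adjusted p = 0.00601), while Pgc was lower (-1.69 ± 0.11, adjusted p = 2.04e-10). Rab3d, at 190 ± 1.26 CPM in KO and 206 ± 7.01 CPM in WT, was not called (-0.12 ± 0.05, adjusted p = 0.108). It was called in fits without WT passage 15 (-0.12, adjusted p = 0.000597) or with only the groups compared (-0.10, adjusted p = 0.000959). This comparison and that of Mist1+ with Mist1- share the WT passage 5 libraries, so the opposite signs of Bhlha15, Rab26 and Pgc in them are not independent.

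At passage 10, 4 of 5 members were again called (34.4% of all genes), but Bhlha15 was no longer among them (-0.24 ± 0.14, adjusted p = 0.206). Xbp1 was higher in KO by 0.25 ± 0.05 (adjusted p = 0.000288). Rab3d was lower, at -0.55 ± 0.05 (adjusted p = 6.84e-08), and Pgc lower, at -0.38 ± 0.11 (adjusted p = 0.00926). The Pgc call was lost without KO passage 10 replicate 3 (-0.31, adjusted p = 0.0611). Rab26 was called higher (1.30 ± 0.49, adjusted p = 0.0458) on 26 counts over 3 KO libraries and 11 over 3 WT libraries, and this call was lost in 5 of 6 fits that left out 1 of those libraries (adjusted p from 0.0369 to 0.196). With only the groups compared Rab26 did not pass the filter at passage 10.

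At passage 15, 4 of 5 members were called, all higher in KO (48.9% of all genes called, 23.6% as higher). Bhlha15 differed most, by 2.08 ± 0.15 (adjusted p = 5.33e-10), a 4.21-fold difference. Rab3d was higher by 0.88 ± 0.05 (adjusted p = 2.38e-11), Xbp1 by 0.74 ± 0.05 (adjusted p = 8.83e-11) and Pgc by 0.63 ± 0.12 (adjusted p = 0.000294). Rab26 had 0.588 ± 0.0755 CPM in KO and 0.808 ± 0.376 CPM in WT (-0.43 ± 0.38, adjusted p = 0.367). These 4 calls held in each fit that left out 1 library and in a fit of the compared groups alone, although that last fit called 2735 genes in all, against 7396.

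**Figure D2:**
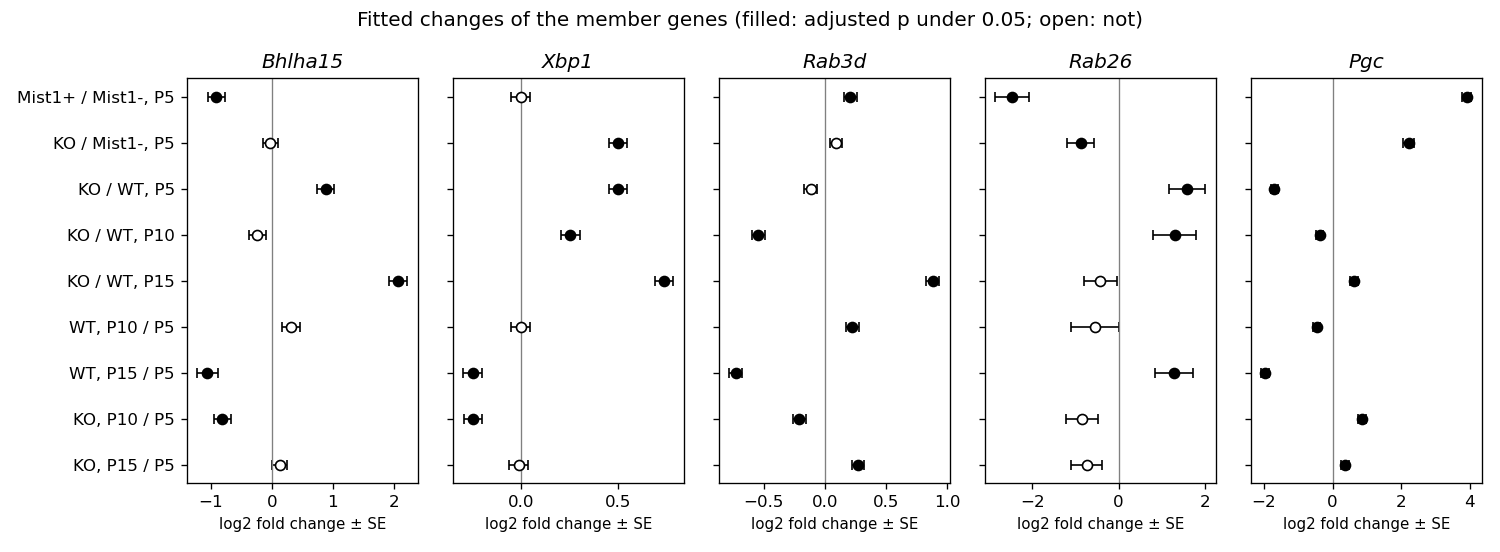
Log2 fold change ± SE (x axis) of each member in 9 comparisons (rows; the group named before the slash is over the one after it); filled points had an adjusted p under 0.05. Xbp1 was called higher in KO at all 3 passages, whereas Rab3d and Pgc changed sign between passages 10 and 15.

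Set directly against Mist1- organoids at passage 5, KO organoids had 3 of 5 members called (21.1% of all genes, 3182 genes, against 5972 without WT passage 15 in the fit). Xbp1 was higher by 0.50 ± 0.05 (adjusted p = 7.93e-08) and Pgc by 2.22 ± 0.15 (adjusted p = 5.76e-10), while Rab26 was lower (-0.88 ± 0.31, adjusted p = 0.0485). The Rab26 call was lost in 4 of 6 fits that left out 1 library, most clearly without Mist1- replicate 2 (-0.52, adjusted p = 0.347). Bhlha15 differed by -0.03 ± 0.13 (adjusted p = 0.915, 95% interval -0.273 to 0.219), and Rab3d by 0.09 ± 0.05 (adjusted p = 0.263).

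In wild-type organoids over passages, Pgc was lower at passages 10 and 15 than at 5, while Rab3d was higher at 10 and lower at 15. At passage 10 against 5, 2 members were called (4.88% of all genes, 2.04% higher and 2.84% lower): Rab3d rose by 0.22 ± 0.05 (adjusted p = 0.0134) and Pgc fell by 0.47 on the log2 scale (SE 0.10, adjusted p = 0.00848). Bhlha15 was not called (0.32 ± 0.14, adjusted p = 0.299). Each call was lost without some libraries, Rab3d in 3 of 6 such fits and Pgc without WT passage 5 replicate 2 (adjusted p = 0.0557). The number of all genes called, 738 at passage 10 and 7761 at passage 15, was 2827 and 3631 with only the groups compared. At passage 15 against 5, all 5 members were called (51.3% of all genes, 24.7% higher and 26.6% lower). Pgc (-1.96 ± 0.12, adjusted p = 1.85e-11), Bhlha15 (-1.06 ± 0.17, adjusted p = 2.87e-05), Rab3d (-0.73 ± 0.05, adjusted p = 5.68e-10) and Xbp1 (-0.25 ± 0.05, adjusted p = 0.000246) fell, and Rab26 rose (1.28 ± 0.44, adjusted p = 0.0206). The Rab26 call was lost without WT passage 15 replicate 1 (0.89, adjusted p = 0.177) and without WT passage 5 replicate 2 (1.06, adjusted p = 0.0834), and that of Xbp1 with only the groups compared (-0.22, adjusted p = 0.116).

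In knockout organoids, Pgc was higher and 3 other members lower at passage 10 than at passage 5. Against passage 5, 4 members were called at passage 10 (7.61% of all genes, 3.89% higher and 3.72% lower), with Bhlha15 (-0.81 ± 0.14, adjusted p = 0.000369), Xbp1 (-0.25 ± 0.05, adjusted p = 0.00161) and Rab3d (-0.21 ± 0.05, adjusted p = 0.0151) lower and Pgc higher (0.85 ± 0.12, adjusted p = 3.41e-05). The Rab3d call was lost in 3 of 6 fits that left out 1 library. The 1150 genes called in all became 3330 without WT passage 15 in the fit and 3059 with only the groups compared. At passage 15 against 5, 2 members were called (13.0% of all genes, 5.77% higher and 7.20% lower, or 1960 genes, against 4492 without WT passage 15). Rab3d rose by 0.27 ± 0.05 (adjusted p = 0.000996) and Pgc by 0.36 ± 0.12 (adjusted p = 0.0461), and the Pgc call was lost in 4 of 6 such fits. Bhlha15 (0.13 ± 0.12, adjusted p = 0.614) and Xbp1 (-0.01 ± 0.05, adjusted p = 0.935) were back near their passage 5 levels.

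The knockout difference itself therefore changed with passage, which the interaction term tests. Between passages 10 and 5, the interaction was called for 4 members (5.93% of all genes, 3.13% higher and 2.81% lower): Pgc at 1.31 ± 0.16 (adjusted p = 9.15e-06), Rab3d at -0.43 ± 0.07 (adjusted p = 0.000771), Bhlha15 at -1.13 ± 0.20 (adjusted p = 0.000858) and Xbp1 at -0.25 ± 0.07 (adjusted p = 0.0342). That of Xbp1 was lost in all 12 fits that left out 1 library (adjusted p from 0.0564 to 0.0956). The 897 genes called in all for this term became 3018 without WT passage 15 and 2951 with only the groups compared. Between passages 15 and 5 it was called for all 5 (38.3% of all genes, 19.7% higher and 18.6% lower), at 2.33 ± 0.17 for Pgc (adjusted p = 6.53e-10), 1.19 ± 0.21 for Bhlha15 (adjusted p = 0.000157), 1.00 ± 0.08 for Rab3d (adjusted p = 1.55e-09), 0.24 ± 0.07 for Xbp1 (adjusted p = 0.00942) and -2.02 ± 0.57 for Rab26 (adjusted p = 0.00854). The Xbp1 term was not called with only the groups compared (0.20, adjusted p = 0.101). At passage 15 against 5, Pgc had changed by 0.36 in KO and by -1.96 in WT, and Bhlha15 by 0.13 in KO and by -1.06 in WT.

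MIST1 dimerises with itself or with E proteins (Tcf3, Tcf4, Tcf12), and Id proteins hold E proteins inactive. Of 7 tested genes in that list, Bhlha15 included, 4 were higher and 1 lower in Mist1+ than in Mist1- (18.8% and 16.2% of all genes). Id3 had 3.93 ± 0.376 CPM in Mist1+ and 1.50 ± 0.180 CPM in Mist1- (1.39 ± 0.21, adjusted p = 1.86e-05), and Id1 had 51.3 ± 2.94 CPM in Mist1+ and 30.4 ± 1.08 CPM in Mist1-. In KO against WT at passage 5, Bhlha15 rose and 4 genes fell (17.0% of all genes fell), led by Id1 (-0.91 ± 0.10, adjusted p = 4.16e-07), Id2 (-0.57 ± 0.07, adjusted p = 7.7e-07) and Id3 (-1.13 ± 0.20, adjusted p = 0.000187). Id1, Id2 and Id3, and with them the E protein gene Tcf4, were thus called in the opposite direction to Bhlha15 in both comparisons, which share the WT passage 5 libraries. At passage 5 Tcf4 had 38.7 ± 2.85 CPM in KO, 54.2 ± 2.69 CPM in WT Mist1+ and 42.3 ± 0.423 CPM in Mist1-. At passage 15, Id3 (1.01 ± 0.26, adjusted p = 0.00367) and Tcf4 (0.64 ± 0.12, adjusted p = 0.000262) were higher in KO together with Bhlha15, and Tcf3 was lower (-0.42 ± 0.07, adjusted p = 0.000108). Of all genes 23.6% were higher and 25.3% lower there, and the 3 higher genes became 1 with only the groups compared.

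XBP1 is activated by the ER sensor IRE1 (Ern1, and Ern2 in epithelia), and the membrane-bound factors ATF6 and CREB3L1 act beside it. Of 11 tested genes of this group, Xbp1 included, 2 rose in KO at passage 5 (Xbp1 and Creb3l1, 0.55 ± 0.06, adjusted p = 1.41e-07), against 6 in a fit without WT passage 15. Of all genes 13.0% rose there. At passage 10, 1 rose (Xbp1, against 3 genes without WT passage 15) and 3 fell, led by Creb3l2 (-0.57 ± 0.10, adjusted p = 0.000113) and Ern2 (-0.54 ± 0.10, adjusted p = 0.00017). Of all genes 15.9% rose and 18.5% fell at that passage. At passage 15, 8 rose and 1 fell (23.6% and 25.3% of all genes), against 6 and 0 with only the groups compared. Creb3l1 had 90.5 ± 0.982 CPM in KO and 19.6 ± 0.626 CPM in WT there (adjusted p = 4.88e-17), Ern2 73.0 ± 4.56 CPM in KO and 34.3 ± 7.96 CPM in WT, and Ern1 57.6 ± 0.338 CPM in KO and 29.1 ± 10.1 CPM in WT. In Mist1+ against Mist1-, none of the 11 was higher and 4 were lower (18.8% and 16.2% of all genes), with Creb3l1 first (-0.82 ± 0.06, adjusted p = 1.51e-10), and Bhlha15 was lower there too while Xbp1 was not called. Atf6 had 84.0 ± 2.61 CPM in Mist1+ and 135.8 ± 4.83 CPM in Mist1-. In WT at passage 15 against 5, 8 fell and 1 rose (26.6% and 24.7% of all genes), but 3 fell in the fit of the compared groups alone.

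Genes listed as XBP1 targets, for ER import, folding and export, moved in small steps. The parts of XBP1, ATF6 and CREB3L1 in these changes were not tested. Of 46 tested, 27 rose and 1 fell in KO at passage 5, with a median log2 fold change of 0.23, where 13.0% of all genes rose and their median was 0.00. Hspa5 (BiP, the main ER chaperone) had 1811 ± 9.28 CPM in KO and 1317 ± 7.81 CPM in WT, and its fellow chaperone Hsp90b1 1883 ± 7.19 CPM in KO and 1388 ± 30.5 CPM in WT. Pdia4, a disulfide isomerase, had 293 ± 5.23 CPM in KO and 223 ± 1.40 CPM in WT. At passage 10, 11 rose and 2 fell (15.9% and 18.5% of all genes), with a median of 0.05, against 23 and 8 without WT passage 15. At passage 15, 28 rose and none fell (23.6% and 25.3% of all genes), with a median of 0.28, against 16 and 0 with only the groups compared. Dnajb9, a co-chaperone of BiP, had 71.4 ± 1.94 CPM in KO and 35.5 ± 6.54 CPM in WT at that passage (1.00 ± 0.09, adjusted p = 7.97e-09).

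In Mist1+ against Mist1- organoids, 24 of the 46 were lower and 1 higher (16.2% and 18.8% of all genes), with a median of -0.19, while Xbp1 itself differed by 0.00. Kdelr3, a receptor that returns ER proteins, had 5.64 ± 0.434 CPM in Mist1+ and 13.0 ± 0.939 CPM in Mist1-, and Sec61a1, a subunit of the import channel, 340 ± 2.23 CPM in Mist1+ and 452 ± 4.97 CPM in Mist1-. KO against Mist1- at passage 5 gave 4 higher and 1 lower (10.2% and 10.9% of all genes), with a median of 0.04, against 16 and 7 without WT passage 15. In KO at passage 10 against 5, 4 fell and none rose (3.72% and 3.89% of all genes), against 29 and 1 without WT passage 15. In WT none was called (4.88% of all genes), against 20 that rose without WT passage 15. In WT at passage 15 against 5, 16 fell and 5 rose (26.6% and 24.7% of all genes), against 6 and 0 with only the groups compared.

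**Figure D3:**
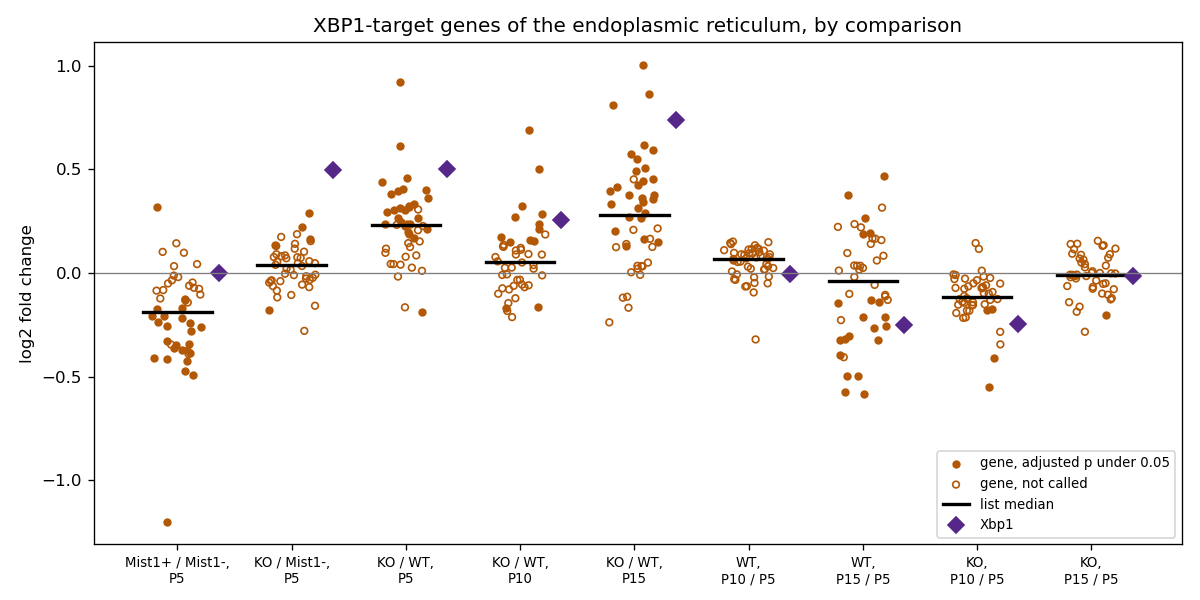
Log2 fold change (y axis) of 46 XBP1-target genes of the ER in 9 comparisons (x axis); filled points had an adjusted p under 0.05, black bars are medians and diamonds Xbp1. The medians lay at 0.23 and 0.28 for KO over WT at passages 5 and 15, and at -0.19 for Mist1+ over Mist1-, where Xbp1 was at 0.00.

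Of 6 reported MIST1 targets, Rab3d and Rab26 included, 2 were higher and 1 lower in Mist1+ than in Mist1- (18.8% and 16.2% of all genes). In KO against WT, 1 was higher and 3 lower at passage 5 (13.0% and 17.0% of all genes), 1 and 4 at passage 10 (15.9% and 18.5%), and 2 and 1 at passage 15 (23.6% and 25.3%). With so few genes, these counts are a description. None had the calls of Bhlha15 in all 4 of these comparisons. Gjb1, which encodes the gap junction protein connexin 32, was higher in Mist1+ (88.3 ± 3.08 CPM) than in Mist1- (33.2 ± 0.614 CPM), where Bhlha15 was lower (Gjb1 1.41 ± 0.07, adjusted p = 5.52e-13). It was lower in KO at passages 5 (-0.93 ± 0.07, adjusted p = 7.21e-10) and 10 (-1.10 ± 0.07, adjusted p = 5.27e-11) and higher in KO at passage 15 (0.75 ± 0.07, adjusted p = 1.43e-08). Atp2c2, a calcium and manganese pump of the secretory pathway, was lower in KO at passages 5 (-0.73 ± 0.09, adjusted p = 1.99e-06) and 10 (-0.55 ± 0.09, adjusted p = 5.17e-05) and not called at passage 15 (-0.20 ± 0.10, adjusted p = 0.0932). Cdkn1a, the cell-cycle inhibitor p21, was lower in KO at all 3 passages, by up to -1.52 ± 0.06 at passage 15 (adjusted p = 6.12e-15). The 12 proliferation genes listed were all higher in KO at passages 5 and 10 (13.0% and 15.9% of all genes). At passage 15, 2 were higher and 7 lower (23.6% and 25.3% of all genes), against 0 and 1 with only the groups compared. Their summed level was 2610 to 2670 CPM in KO and 1830 to 1880 CPM in WT at passage 5, and the part of proliferation in the member changes was not tested.

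Rab3d and Rab26 belong to a set of 11 secretory Rab GTPases, of which 9 were tested. Rab27a, which tethers granules at the plasma membrane, had 151 ± 3.25 CPM in Mist1+ and 69.6 ± 3.04 CPM in Mist1- (1.12 ± 0.05, adjusted p = 3.22e-13), and its paralogue Rab27b 194 ± 0.941 CPM in Mist1+ and 154.5 ± 1.84 CPM in Mist1-. In that comparison 4 of 9 were higher and 1, Rab26, lower (18.8% and 16.2% of all genes). KO against WT gave 1 higher and 5 lower at passage 5 (13.0% and 17.0% of all genes), 1 and 4 at passage 10 (15.9% and 18.5%), and 5 and 1 at passage 15 (23.6% and 25.3%), and the 1 that was higher at passages 5 and 10 was Rab26. With only the groups compared, 4 of 8 tested were higher and 0 lower at passage 15. Rab27a was lower in KO at passages 5 (-0.87 ± 0.05, adjusted p = 3.76e-11) and 10 (-0.87 ± 0.05, adjusted p = 3.36e-11), and higher at passage 15 (1.05 ± 0.05, adjusted p = 1e-12), and Rab3d had the same signs, not called at passage 5. Rab37 was in the table but below the filter in every group.

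Of 21 tested genes for granule docking and exocytosis, 8 were higher and 2 lower in Mist1+ than in Mist1- (18.8% and 16.2% of all genes). In KO against WT, none was higher and 8 were lower at passage 5 (13.0% and 17.0% of all genes), and 2 were higher and 9 lower at passage 10 (15.9% and 18.5%). At passage 15, 8 were higher and 5 lower (23.6% and 25.3% of all genes), against 2 and 3 with only the groups compared. Sytl2, a Rab27 effector, had 190 ± 3.76 CPM in KO and 251 ± 3.99 CPM in WT at passage 5 (-0.40 ± 0.10, adjusted p = 0.00478), 194 ± 6.76 CPM in KO and 401 ± 4.70 CPM in WT (passage 10), and 247 ± 3.60 CPM in KO and 84.0 ± 22.3 CPM in WT (passage 15). Sytl1, another Rab27 effector, was lower in KO at passage 5 (5.31 ± 0.683 CPM in KO, 19.3 ± 4.27 CPM in WT). Stx3, a membrane syntaxin, went the other way at passage 10, with 93.0 ± 3.05 CPM in KO and 70.4 ± 2.33 CPM in WT (0.40 ± 0.05, adjusted p = 3.81e-06).

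Pgc shared its signs in Mist1+ against Mist1- and in KO against WT with Ctse. This gene encodes the related aspartic protease cathepsin E of surface mucous cells. Ctse had 371 ± 6.09 CPM in Mist1+ and 74.5 ± 3.88 CPM in Mist1- (2.32 ± 0.05, adjusted p = 8.91e-19). It was lower in KO at passages 5 (-1.51 ± 0.05, adjusted p = 1.27e-15) and 10 (-1.07 ± 0.05, adjusted p = 3.36e-13), and higher at passage 15 (0.46 ± 0.05, adjusted p = 1.03e-07), the sign of Pgc at each passage. Within KO, Ctse averaged 156 and 164 CPM at passages 10 and 15, while Pgc averaged 16.8 and 12.0 CPM. Ctsd, the other tested gene for an aspartic protease, had the signs of Pgc except at passage 15. There it was called lower in KO (464 ± 5.96 CPM in KO, 622 ± 119 CPM in WT), but not with only the groups compared. Surface mucous (pit) cell markers moved in the same comparisons. Of 8 tested, Ctse included, 8 were higher in Mist1+ than in Mist1- (18.8% of all genes). In KO, 7 were lower at passage 5 (17.0% of all genes), 8 lower at passage 10 (18.5%) and 7 higher at passage 15 (23.6%). Their sum was 1560 to 1590, 2440 to 2640 and 4870 to 4950 CPM in KO at passages 5, 10 and 15, 5220 to 5370, 7140 to 7400 and 943 to 1570 CPM in WT, and 726 to 756 CPM in Mist1-, and their part in the results for Pgc, Rab3d and Rab27a was not tested. Gkn2, a gastrokine of pit cells, averaged 247, 553 and 1265 CPM in KO at passages 5, 10 and 15, while Pgc was highest there at passage 10. Neck cell genes were mixed. Of 9 tested mucous neck and metaplasia markers, 5 were higher and 2 lower in Mist1+ than in Mist1- (18.8% and 16.2% of all genes). In KO against WT, 2 were higher and 5 lower at passage 5 (13.0% and 17.0% of all genes). The counts were 3 and 5 at passage 10 (15.9% and 18.5%), and 4 and 4 at passage 15 (23.6% and 25.3%), against 3 and 3 with only the groups compared. Their sum was 10500 to 10600, 8990 to 9220 and 9600 to 9650 CPM in KO at passages 5, 10 and 15, 17400 to 17700, 15000 to 15300 and 6610 to 9390 CPM in WT, and 6900 to 6980 CPM in Mist1-, and their part in the results for Pgc was not tested. Most of this sum was Clu in every group, with group means of 5646 to 16360 CPM, so it is not a level of neck cells. Gkn3, a gastrokine of neck cells, had 278 ± 2.61 CPM in Mist1+ and 9.71 ± 0.747 CPM in Mist1- (4.84 ± 0.09, adjusted p = 1.16e-19), and was called in the direction of Pgc in KO against WT at each passage. Muc6, the neck mucin, averaged at most 0.508 CPM in any group, while Tff2 had 25.0 ± 1.99 CPM in Mist1+ and 480 ± 11.3 CPM in Mist1-, the opposite of Pgc.

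**Figure D4:**
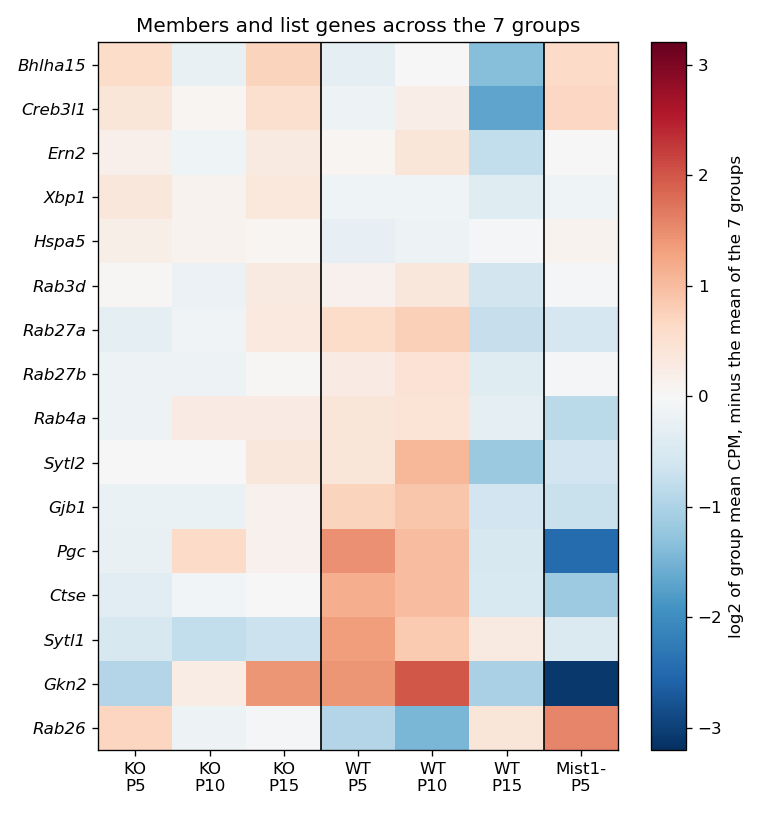
Group mean CPM of the members and of listed genes (rows) across the 7 groups (columns), as log2 minus the mean of the 7 groups. Pgc, Ctse, Gjb1 and Gkn2 were highest in WT at passage 5 or 10 and lowest in Mist1-, Rab26 was highest in Mist1- (1.56), and Bhlha15 was lowest in WT at passage 15 (-1.36).

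The members did not vary as a block. Over the 7 group means on a log2 CPM scale, Pearson's r was -0.953 for Rab26 with Pgc (-0.955 without WT passage 15), a value that carries the few Rab26 counts. It was 0.749 for Bhlha15 with Xbp1 (0.544 without WT passage 15), 0.692 for Bhlha15 with Rab3d (0.120 without it), and -0.258 for Bhlha15 with Pgc (-0.713 without it). For Bhlha15 with Rab26 it was 0.303 (0.671 without WT passage 15), again on few Rab26 counts. The Bhlha15 values thus rest much on WT passage 15. All points share the libraries and their scaling.

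Among tested genes with a mean of at least 5 CPM, those most like Bhlha15 over the 7 groups were Asph (r = 0.995, 0.886 over the 21 libraries), Btbd1 (0.986, 0.932) and Edem1 (0.984, 0.907), Edem1 being a lectin of ER-associated degradation. For Xbp1 they were Marveld1 (0.973), Gramd1b (0.970) and Tmem243 (0.968), and for Rab3d Vps26b (0.994), a retromer subunit, Aldh3a2 (0.989) and Slc25a44 (0.987). Vps26b reached 0.482 over the 21 libraries. For Rab26 they were Pla2g12a (0.989), Helb (0.965) and Gm5559 (0.963), and for Pgc Me1 (0.987), which encodes cytosolic malic enzyme, Ablim1 (0.979) and Lypd8l (0.972). These are the highest of 15115 genes over 7 points and are given as a description.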

How the data were processed

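RNA-seq libraries of 21 organoid samples (7 groups of 3, by title) were analysed; 6 sorted-cell samples among the 27 labelled were not analysed here. Per the submitters' processing notes, reads were handled with cutadapt 1.9.1, HISAT2 2.2.1 and HTSeq 0.6.1 on GRCm38.p5; annotation and strand setting are not given in the sources used here. The deposited table holds raw counts per gene and FPKM, which the authors computed; FPKM could be recomputed from them for 100.0% of values, to 0.006. Of 52073 gene identifiers shared with GENCODE M21 (GRCm38), 1435 had the same coordinates, so M21 coordinates are printed, not the table's.

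Counts (13805585 to 19608956 per library) were fitted with edgeR 4.0.16 (R 4.3.3), TMM scaling, filterByExpr (minimum count 10, total 15), one mean per group over all 21 libraries, and robust quasi-likelihood F-tests. Adjusted p is Benjamini-Hochberg over 15115 genes, called under 0.05; SE is the log2 fold change over the square root of F, and 95% intervals are 1.96 SE. Floors use 3 counts and cover counting error only. The intervals also cover the spread between libraries, which was estimated per gene over all groups together and may be technical. The self-test on simulated data ran first. Alternatives were other scalings and filters, limma 3.58.1 on log2(FPKM + 1) and (+ 0.1), DESeq2 1.42.0, fewer groups in the fit, a replicate block and each library left out; list counts under fewer groups were added after the data were seen. Same-numbered libraries did not deviate together, so no pairing by number was seen. Replicates of most groups differed so little that this check could miss a pairing. The members and lists were chosen with earlier results of these data known. Text names the members everywhere, up to 4 genes per list by smallest adjusted p (others where a role needs them), and the 3 genes most alike by r of group means.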

Additional observations from a re-analysis of the deposited data

Results flagged for a closer look

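The knockout difference depended on passage by a test of the difference itself. Relative to passage 5, the interaction at passage 10 was -1.13 for Bhlha15, -0.245 for Xbp1, -0.43 for Rab3d and 1.31 for Pgc on the log2 scale. Relative to passage 5, the interaction at passage 15 was 1.19 for Bhlha15, 0.237 for Xbp1, 1.00 for Rab3d, -2.02 for Rab26 and 2.33 for Pgc. Both Xbp1 terms depended on the fit: that at passage 10 was lost in all 12 fits that left out 1 library (adjusted p from 0.0564 to 0.0956), and that at passage 15 with only the groups compared (adjusted p = 0.101). For Bhlha15 and Rab3d the term is negative at passage 10 and positive at passage 15. Groups of 3 libraries are too small for a check on single outlying libraries.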

How the results depend on the processing

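Directions and calls of the members mostly held: of 576 log2 fold changes under other settings 544 kept direction and side of the threshold, and of 390 with 1 library left out 347 did. With library totals alone, limma on log2(FPKM + 1) or log2(FPKM + 0.1), no low-count filter or the replicate block, members called in KO at passage 15 against 5 fell to 1 of 5, Pgc being lost (block: 0.37, adjusted p = 0.0622). Without a filter WT at passage 10 against 5 also had 1. With only the groups compared WT at passage 15 against 5 had 3, Rab26 not being tested there. A mean FPKM of at least 1 leaves Rab26 untested. The block changed no other member call. No pairing by number was seen, which the small spread of most groups could hide (same-number correlations -0.0355 to 0.139, 5 of 21 libraries correlating best with their own number).

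Genes called overall depended on whether WT passage 15 entered the fit. Without it they were 7095 (KO against WT, passage 5), 5972 (KO against Mist1-), 2766 (WT, 10 against 5), 3330 and 4492 (KO, 10 and 15 against 5) and 3018 (interaction, passage 10). With only the groups compared they were 7035, 6039, 2827, 3059, 4606 and 2951 in that order, 2735 for KO against WT at passage 15 and 3631 for WT at 15 against 5. The main counts were 4547, 3182, 738, 1150, 1960, 897, 7396 and 7761.

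Leaving out 1 library, members called ranged from 1 to 2 for KO at 15 against 5 and for WT at 10 against 5, and from 2 to 4 for KO against WT at passage 10. They ranged from 2 to 3 for KO against Mist1-, from 3 to 4 for KO at 10 against 5 and from 4 to 5 for WT at 15 against 5. For the interaction at passage 10 they were 3 in every such fit. The sign changed only for values near 0. Bhlha15 in KO against Mist1- was 0.0014, 0.0089 and 0.015 with library totals and limma at + 1 and + 0.1, and -0.15 to 0.15 with a library left out. Xbp1 in WT at 10 against 5 was 0.0089, 0.0084, 0.0022, 0.0088 and 0.0089 with totals, no filter, the FPKM filter and limma, and -0.012 to 0.0047 with a library left out. So ranged Xbp1 in KO at 15 against 5 (-0.021 to 0.00028), Xbp1 in Mist1+ against Mist1- (-0.011 to 0.0092) and the Rab26 interaction at passage 10 (-0.66 to 0.051). Depth limits Rab26 most, with 2 to 46 counts a library.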
